A study of Mus musculus with 16 samples.

Results

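The cortex of embryonic day 15.5 mice that had lost both Knl1 and Trp53 was compared with control cortex in the 7 dKO and ctrl libraries that the labels place in batch 3, out of 16 libraries in the whole series. The 4 dKO mice (T2, T8, F1 and F7) carried hGFAP-Cre with both genes, Knl1 (named Casc5 in the labels) and Trp53, made conditional. The 3 ctrl mice were 1 wild type for Casc5 (T3) and 2 heterozygous for it (T4 and T5), and the labels do not give their Trp53 or Cre alleles. All 7 were mice of mixed genetic background. hGFAP-Cre is a transgene that recombines in cortical neural progenitor cells from midneurogenesis on, so cells that left the progenitor pool earlier, and cells of other origin such as interneurons, vessels and microglia, are not its targets. Litter divides the dKO mice. T2 (male) and T8 (female) are littermates of all 3 ctrl (T3 male, T4 and T5 female), whereas F1 (male) and F7 (female) come from litter 4, which has no ctrl library. In litter 4, litter and genotype therefore cannot be told apart. A single cKO mouse of litter 4, F3 (male, Knl1 deleted and p53 intact), carries the same batch label and is given beside the dKO values. It enters only the fits of all 15 mice.

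KNL1 is a scaffold of the outer kinetochore, the protein complex by which chromosomes attach to the spindle. It recruits the checkpoint kinases that hold a dividing cell in metaphase until every chromosome is attached. p53 is the transcription factor that arrests or kills cells after DNA damage and mitotic failure. Cells that missegregate chromosomes without p53 can stay in the tissue, and the comparison asks which functions and cell types of the E15.5 cortex differ in that state.

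Depth differed with litter. The 5 libraries of litter 3 held between 399832 and 1023405 deduplicated reads on genes, and dKO F1 and F7 held 3519529 and 5396803. In ctrl T3, 3 reads were worth 7.5 CPM (counts scaled to a fixed library total), and in dKO F7 they were worth 0.556. Xist was between 956 and 1140 CPM in the 4 female libraries and at most 16.3 CPM in the 3 male ones. The Y-linked gene Uty was between 145 and 184 CPM in the male libraries, at 2.82, 6.47 and 0.388 CPM in the female T4, T8 and F7, and at 15.6 CPM in the female ctrl T5. Tbr1, a transcription factor that marks deep-layer cortical neurons, was between 149 and 189 CPM in the 7 libraries. Sox2, Neurod1, Tubb3, Pou3f3 and Cdt1 were listed at 0 in all 7 libraries, so nothing can be read from those genes. Levels below are CPM scaled with TMM factors over the 15 mice of the series, and fold changes are log2 values from edgeR with their standard error (SE).

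Knl1 itself (chromosome 2) was at 72.4, 80 and 48.9 CPM in ctrl T3, T4 and T5. It was at 49.7 and 58.2 CPM in dKO T2 and T8, and at 58 and 33.4 CPM in dKO F1 and F7. The groups overlapped, with F7 below all ctrl libraries, and the log2 fold change of -0.54 (SE 0.26, n = 4 and 3) did not pass the test (edgeR FDR = 0.552). Counts were made over whole genes, so transcripts that lack only the deleted exons still count, and these values do not check the deletion. Trp53 (chromosome 11) was at 28, 24.5 and 15.6 CPM in ctrl and between 19.8 and 32.3 CPM in dKO (log2 fold change 0.02, SE 0.32, FDR = 0.996), so its level did not fall in dKO. The labels do not give the exons deleted from Trp53. How far its level should fall was not tested, and these values were not used to check the deletion.

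Few transcripts separated dKO from ctrl once both litters were required. Of 9546 genes tested, 15 passed an FDR of 0.05 in dKO versus ctrl, which is 0.157% of the genes, with 5 higher and 10 lower in dKO. Of these 15, 14 had the same direction and an unadjusted p below 0.05 in litter 3 dKO versus ctrl and in litter 4 dKO versus ctrl, 4 of them higher and 10 lower. Both litters are set against the same 3 ctrl libraries, so the litters are not independent of each other. The 15 genes were also called from these same libraries. Agreement of the litters and lack of overlap among them are therefore partly built in, and are not a separate test. Over all genes, 173 met this condition (87 higher and 86 lower), or 1.81%. In 12 of the 15 called genes the dKO and ctrl libraries did not overlap, as in 848 (8.88%) of all genes tested. Within litter 3 alone, 0 genes passed an FDR of 0.05 with edgeR (0%), against 529 at an unadjusted p below 0.05 and 1 gene by DESeq2. The quasi-likelihood test left 1 called gene of the 15 in dKO versus ctrl, and DESeq2 left 4.

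Gm29260, a long intergenic noncoding RNA of unknown role (chromosome 1, bases 41781808 to 41939560 of GRCm38, plus strand), had the smallest p. It was at 647, 613 and 493 CPM in ctrl T3, T4 and T5, at 348 and 371 CPM in dKO T2 and T8, and at 352 and 348 CPM in dKO F1 and F7. Every dKO library was below every ctrl library, and the litters did not differ. The log2 fold change was -0.78 (SE 0.14, FDR = 0.000668), with -0.72 (SE 0.16) in litter 3 and -0.83 (SE 0.15) in litter 4. The 4 ctrl mice of the other batches were between 497 and 589 CPM, above all 4 dKO mice, and cKO F3 was at 365 CPM. Gm29260 was the gene left by the quasi-likelihood test (FDR = 0.0233), and it was called again when all 15 mice were fitted with litter as a covariate (log2 fold change -0.72, FDR = 0.00634). The comparison of Gm29260 dKO versus ctrl passed in 16 of 20 alternatives. The 4 in which it missed were those without ctrl T3 (FDR = 0.074), with the wild-type ctrl T3 alone (FDR = 0.0533), with the 7 libraries and litter as a covariate (FDR = 0.0792) and with all 15 mice and batch as the covariate (FDR = 0.1).

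Rpph1, the RNA subunit of ribonuclease P that cuts the leader from transfer RNA precursors (chromosome 14), had the smallest p among the genes that rose. It was at 191, 271 and 151 CPM in ctrl, at 365 and 355 CPM in dKO T2 and T8, and at 1010 and 802 CPM in dKO F1 and F7. All dKO libraries were above all ctrl libraries, with litter 4 far above litter 3. A list of 8 structured RNAs was written after their levels were seen, and it includes Rpph1 and the mitochondrial ribosomal RNAs. All 5 tested members were called higher in litter 4 dKO versus ctrl, where 1.58% of all genes rose. Since the levels were known when the list was written, this count is not a test. The list median was 1.99 in litter 4 and -0.08 in litter 3. The summed level of the list was 5740 to 7490 CPM in ctrl and 5050 and 7830 CPM in litter 3 dKO. It was 31300 and 27400 CPM in litter 4 dKO and 42600 CPM in F3. In litter 4 most of it came from the mitochondrial ribosomal RNAs mt-Rnr1 and mt-Rnr2. These were at 11000 and 19100 CPM in F1 and at 9760 and 16700 CPM in F7, so the sum mainly gives their levels. The part of the listed RNAs in the result for Rpph1 was not tested. The log2 fold change was 1.56 (SE 0.3, FDR = 0.00265), with 0.76 (SE 0.2) in litter 3 and 2.03 (SE 0.19) in litter 4, and the litters differed from each other (log2 difference 1.27, FDR = 2.66e-07). The cKO mouse F3 of litter 4 was at 544 CPM, and the ctrl mice of other batches were between 296 and 630 CPM, so the batch 3 ctrl libraries were the lowest of the controls.

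**Figure D1:**
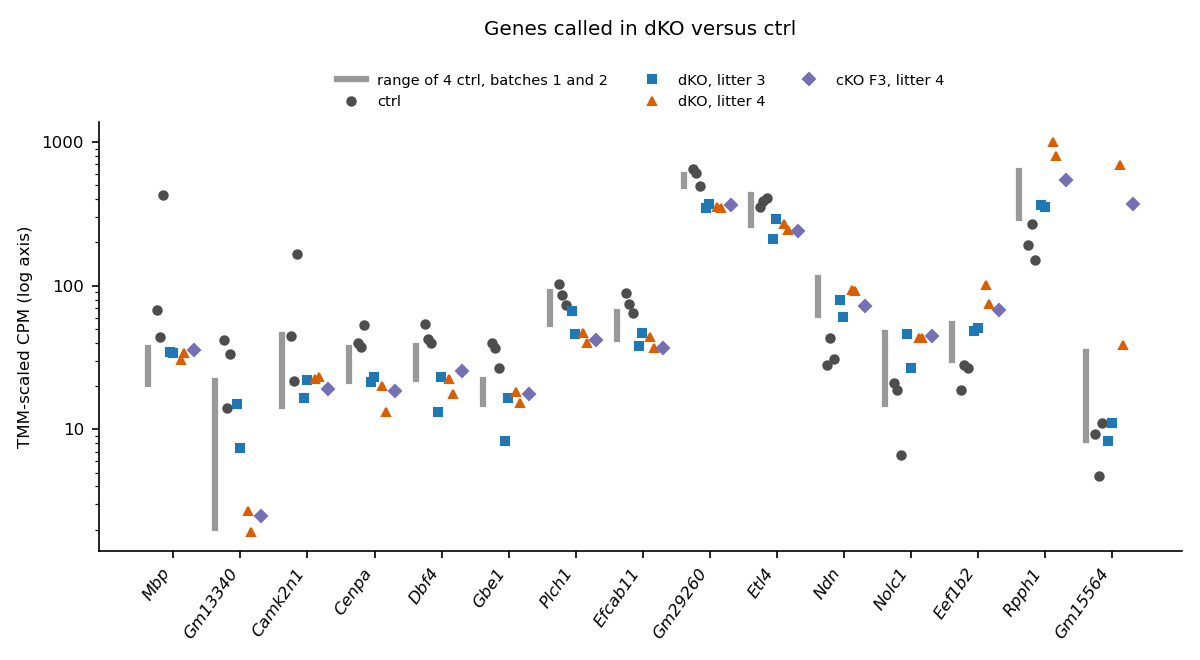
Level of the 15 genes called in dKO versus ctrl, in TMM-scaled CPM on a log axis, with 1 point per library of batch 3 and a grey bar from the lowest to the highest of the 4 ctrl mice of batches 1 and 2. For Gm29260 the 4 dKO points lie between 348 and 371 CPM, below every ctrl mouse, while for Gm15564 only the litter 4 points stand away from ctrl.

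The other higher calls were Eef1b2, Nolc1, Ndn and Gm15564. Eef1b2, a subunit of the exchange factor of translation elongation, was at 18.7, 28.2 and 26.7 CPM in ctrl, at 48.1 and 50.8 CPM in litter 3 dKO and at 101 and 74.7 CPM in litter 4 dKO (log2 fold change 1.44, SE 0.31, FDR = 0.00356). Nolc1, a nucleolar phosphoprotein, was at 21, 18.8 and 6.67 CPM in ctrl and between 26.8 and 46.4 CPM in dKO (log2 fold change 1.24, SE 0.33, FDR = 0.0444). Ndn, the imprinted gene of necdin, a protein of postmitotic neurons, was at 28, 43.3 and 31.1 CPM in ctrl, at 79.6 and 61 CPM in litter 3 dKO and at 93.9 and 92.2 CPM in litter 4 dKO (log2 fold change 1.15, SE 0.25, FDR = 0.00346). For these genes, too, no dKO library overlapped ctrl. The ctrl mice of other batches were between 62.2 and 114 CPM for Ndn, between 30.2 and 53.8 CPM for Eef1b2 and between 15.1 and 46.6 CPM for Nolc1, overlapping the dKO libraries for each. Without ctrl T5, Rpph1 (FDR = 0.152), Eef1b2 (FDR = 0.065), Ndn (FDR = 0.0793) and Nolc1 (FDR = 0.328) were no longer called. The fifth higher call, Gm15564, was at 4.7 to 11.1 CPM in all 5 litter 3 libraries against 694 CPM in F1 and 38.6 CPM in F7, so that it did not hold in litter 3. It is one of the loci with reads like ribosomal RNA, so its counts cannot be read as expression of the gene, and 4 higher calls were left when such loci were taken out.

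Cell division genes were among the lower calls. Cenpa, the histone H3 variant that marks the centromere on which the kinetochore is built, was at 39.7, 37.6 and 53.3 CPM in ctrl, at 21.5 and 23.1 CPM in dKO T2 and T8 and at 19.9 and 13.2 CPM in dKO F1 and F7. No dKO library reached the lowest ctrl, and the log2 fold change was -1.28 (SE 0.3, FDR = 0.0207), with -0.94 (SE 0.36) in litter 3 and -1.46 (SE 0.3) in litter 4. Dbf4, the activating subunit of the kinase that fires replication origins, was at 53.7, 42.3 and 40 CPM in ctrl, at 13.3 and 23.1 CPM in litter 3 dKO and at 22.3 and 17.7 CPM in litter 4 dKO. Its log2 fold change was -1.25 (SE 0.26, FDR = 0.00356), with -1.23 (SE 0.36) in litter 3 and -1.25 (SE 0.27) in litter 4. Bub1b, the checkpoint kinase BubR1 that acts at kinetochores built on KNL1, was at 53.7, 50.8 and 64.5 CPM in ctrl, at 33.2 and 39.7 CPM in litter 3 dKO and at 35.3 and 23.9 CPM in litter 4 dKO. It did not overlap either but missed the FDR (log2 fold change -0.85, SE 0.25, FDR = 0.155). The levels in F3 were 18.6 CPM for Cenpa, 25.5 CPM for Dbf4 and 28.9 CPM for Bub1b, and the ctrl mice of other batches were between 21.8 and 37 CPM for Cenpa and between 22.5 and 37.9 CPM for Dbf4. Without ctrl T5, Dbf4 was still called (FDR = 0.0499) and Cenpa was not (FDR = 0.27).

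The start regions of these cell cycle genes are shown because they were searched for, and all hold, the core of the cell cycle homology region, an element through which genes of late cell cycle phases are repressed in resting cells. The sequences are from RefSeq on GRCm38.p6, each from 250 bases before to 50 bases after the annotated start, 5′ to 3′ on the strand of the gene. Capitals mark the core TTTGAA, or its reverse complement, and both strands were searched.
Cenpa, chr5:30666636-30666935, plus strand: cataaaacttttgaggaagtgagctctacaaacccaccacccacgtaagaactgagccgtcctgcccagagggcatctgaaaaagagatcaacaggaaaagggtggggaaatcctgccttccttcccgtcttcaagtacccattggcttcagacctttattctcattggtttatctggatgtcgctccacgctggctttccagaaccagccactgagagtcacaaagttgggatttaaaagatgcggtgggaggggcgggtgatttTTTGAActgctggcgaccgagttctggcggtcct
Bub1b, chr2:118597961-118598260, plus strand: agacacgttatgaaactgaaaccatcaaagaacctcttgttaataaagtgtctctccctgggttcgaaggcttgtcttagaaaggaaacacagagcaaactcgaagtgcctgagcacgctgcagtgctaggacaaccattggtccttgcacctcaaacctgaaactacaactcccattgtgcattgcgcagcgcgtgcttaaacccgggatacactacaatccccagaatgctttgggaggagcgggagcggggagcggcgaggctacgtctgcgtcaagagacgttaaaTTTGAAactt
Dbf4, chr5:8422667-8422966, minus strand: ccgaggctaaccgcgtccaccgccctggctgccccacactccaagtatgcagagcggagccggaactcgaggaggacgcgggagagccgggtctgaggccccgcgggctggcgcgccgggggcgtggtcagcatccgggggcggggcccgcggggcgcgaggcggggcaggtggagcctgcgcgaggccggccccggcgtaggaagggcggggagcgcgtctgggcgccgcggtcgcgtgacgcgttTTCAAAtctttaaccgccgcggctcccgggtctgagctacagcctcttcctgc
The core begins 16 bases after the start in Cenpa, 40 bases after it in Bub1b and 3 bases before it, on the opposite strand, in Dbf4. Of 32851 start regions of the same 300 bases, 17.9% hold it on either strand, so a match is common and only describes the window.

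The other lower calls had varied functions. Efcab11, an EF-hand protein, was at 88.7, 74.3 and 64.5 CPM in ctrl and between 36.7 and 47.1 CPM in dKO (log2 fold change -0.93, SE 0.21, FDR = 0.00927). Gbe1, the glycogen branching enzyme, was at 39.7, 36.7 and 26.7 CPM in ctrl and between 8.29 and 18.1 CPM in dKO (log2 fold change -1.21, SE 0.28, FDR = 0.0202). The ctrl mice of other batches were between 15.1 and 22 CPM for Gbe1, well below the batch 3 ctrl libraries. Plch1, a phospholipase C, was at 103, 86.6 and 73.4 CPM in ctrl and between 39.8 and 66.3 CPM in dKO (log2 fold change -0.94, SE 0.22, FDR = 0.0165). Etl4, a large coiled-coil protein, was at 352, 391 and 409 CPM in ctrl and between 211 and 293 CPM in dKO (log2 fold change -0.64, SE 0.15, FDR = 0.0165). In these 4 genes, no dKO library overlapped the batch 3 ctrl libraries. Gm13340, an unprocessed pseudogene, was at 42, 14.1 and 33.3 CPM in ctrl, at 14.9 and 7.39 CPM in litter 3 dKO and at 2.72 and 1.94 CPM in litter 4 dKO (log2 fold change -2.48, FDR = 0.0339). Reads of such a copy may come from another locus of like sequence, and its level is uncertain.

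The calls of Mbp and Camk2n1 rested on 1 ctrl library. Mbp, myelin basic protein, was at 67.7 and 44.2 CPM in ctrl T3 and T4 and at 427 CPM in ctrl T5, against 30.5 to 34.8 CPM in dKO. Camk2n1, an inhibitor of the neuronal kinase CaMKII, was at 44.4, 21.6 and 167 CPM in ctrl and between 16.6 and 23.3 CPM in dKO. Without T5 the log2 fold change of Mbp went from -2.49 to -0.73 (FDR = 0.423) and that of Camk2n1 from -1.89 to -0.5 (FDR = 0.816). The summed level of 18 genes of mature glia and mature neurons was 1170 CPM in T5, 301 and 218 CPM in T3 and T4, and 215 to 248 CPM in dKO. This list was written after the levels of T5 were known. T5 was also the female library with the most Y-linked reads. The part of other RNA in the results of T5 was not tested. Without T5, 5 genes passed the FDR instead of 15, all of them lower, and 4 of these were among the 15 (Gm29260, Dbf4, Efcab11 and Gbe1).

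The genes that next met the condition in both litters but missed the FDR were mostly of low level. Zfp282, a zinc finger protein, was at 16.3, 38.6 and 24.5 CPM in ctrl and between 51.7 and 63 CPM in dKO (log2 fold change 0.94, SE 0.25, FDR = 0.0563). Rrbp1, a ribosome-binding protein of the endoplasmic reticulum, was at 18.7 to 24.5 CPM in ctrl and 33.2 to 48.3 CPM in dKO (log2 fold change 1.01, FDR = 0.0777), and Srp14, of the signal recognition particle, was at 2.22 to 16 CPM in ctrl and 24 to 31.4 CPM in dKO (log2 fold change 1.2, FDR = 0.132). Zfp639, Ccl27a, Arl1, Peli3 and Trank1 were also higher in value, with log2 fold changes from 1.08 to 1.93 and FDR values from 0.0602 to 0.113. Zfp639 had only 2 reads in ctrl T3 and 2 in ctrl T5. Cemip, a hyaluronan-degrading protein, and Acss1, a mitochondrial acetyl-CoA synthetase, were lower in value, with log2 fold changes of -1.17 (FDR = 0.0602) and -0.79 (FDR = 0.0831).

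Controls of other batches place these differences. For 10 of the 15 called genes the mean of the 4 ctrl mice of batches 1 and 2 was nearer to dKO than to the batch 3 ctrl mean on the log2 scale. Gm29260, Cenpa, Etl4, Plch1 and Gm15564 were the exceptions. When all 15 mice were fitted with batch as a covariate, 0 genes of dKO versus ctrl passed an FDR of 0.05 by edgeR, with 642 at an unadjusted p below 0.05. With litter as the covariate, where litter 4 is set by cKO F3, 3 genes passed, Gm29260, Rpph1 (log2 fold change 0.83, FDR = 0.0289) and Dok5. Dok5, an adaptor of receptor tyrosine kinases that was looked up after this fit, was at 105, 131 and 149 CPM in ctrl, 77.9 and 78.5 CPM in litter 3 dKO, 120 in both F1 and F7 and 131 CPM in F3.

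The progenitor lists were lower in value in both litters, without a called member in dKO versus ctrl. With 0.157% of all genes called, lists of the sizes used here and below would hold none at that share. A count of 0 called is therefore not a result about a list. Intermediate progenitors are the basal cells that divide to give neurons. Of 15 list genes 12 were tested, 0 passed the FDR, 9 had a negative log2 fold change, and the median was -0.57, with -0.38 in litter 3 and -0.62 in litter 4, against 0 over all genes in each comparison. Their summed level was 378 to 431 CPM in ctrl, 278 to 342 CPM in litter 3 dKO and 216 to 301 CPM in litter 4 dKO, and the groups did not overlap. In a bulk sample, fewer cells of a type and less RNA per cell cannot be told apart.

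Insm1, a zinc finger factor that drives delamination of basal progenitors, was at 51.4, 33.9 and 60 CPM in ctrl, at 34.8 and 28.6 CPM in litter 3 dKO and at 26 and 19.2 CPM in litter 4 dKO (log2 fold change -0.92, SE 0.29, FDR = 0.193). Rhbdl3, a rhomboid-like protein, was at 72.4, 130 and 77.8 CPM in ctrl and 73, 61.3, 58.9 and 42.5 CPM in dKO T8, T2, F1 and F7 (log2 fold change -0.8, SE 0.25, FDR = 0.164). Mfap4, a microfibril protein, was at 14, 27.3 and 13.3 CPM in ctrl and 4.97 to 13.9 CPM in dKO (log2 fold change -1.26, SE 0.4, FDR = 0.184). These 3 genes fell in litter 4 dKO versus ctrl (FDR = 0.00822, 0.00234 and 0.0153). The ctrl mice of other batches were between 30.9 and 42.5 CPM for Insm1 and between 57.1 and 114 CPM for Rhbdl3. For Mfap4 they were between 8.4 and 17.4 CPM, and each range overlapped the dKO libraries. The proneural gene Neurog2 was at 32.7, 38.6 and 48.9 CPM in ctrl and 18.2, 35.1, 26 and 20.4 CPM in dKO (FDR = 0.398). Eomes, the T-box factor that defines these cells, was at 51.4, 84.7 and 60 CPM in ctrl and between 40.2 and 67.5 CPM in dKO, with overlapping groups (log2 fold change -0.39, FDR = 0.693). In cKO F3 Eomes was at 29.8 CPM and Neurog2 at 10.2 CPM, below all 4 dKO mice. The ctrl mice of other batches were between 62.2 and 98.1 CPM for Eomes and between 23.5 and 44 CPM for Neurog2, overlapping dKO.

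Apical progenitors, the radial glia that line the ventricle, gave 18 tested genes of 22, with 0 called and a median of -0.24 (-0.1 in litter 3, -0.45 in litter 4). Their summed level overlapped, at 1550 to 1880 CPM in ctrl and 1210 to 1810 CPM in dKO. Prom1, the stem cell membrane protein prominin, was at 67.7, 71.5 and 60 CPM in ctrl, 31.5 and 46.2 CPM in litter 3 dKO and 51.3 and 38.6 CPM in litter 4 dKO. All dKO libraries were below ctrl for it, and it missed the FDR (log2 fold change -0.7, SE 0.22, FDR = 0.165). Gli3, a transcription factor of the Hedgehog pathway, was at 338, 417 and 378 CPM in ctrl, 313 and 387 CPM in litter 3 dKO and 258 and 207 CPM in litter 4 dKO, so that litter 4 lay below ctrl and litter 3 overlapped it (FDR = 0.000262 in litter 4). The litters differed for Gli3 (log2 difference -0.67, FDR = 0.0143).

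**Figure D2:**
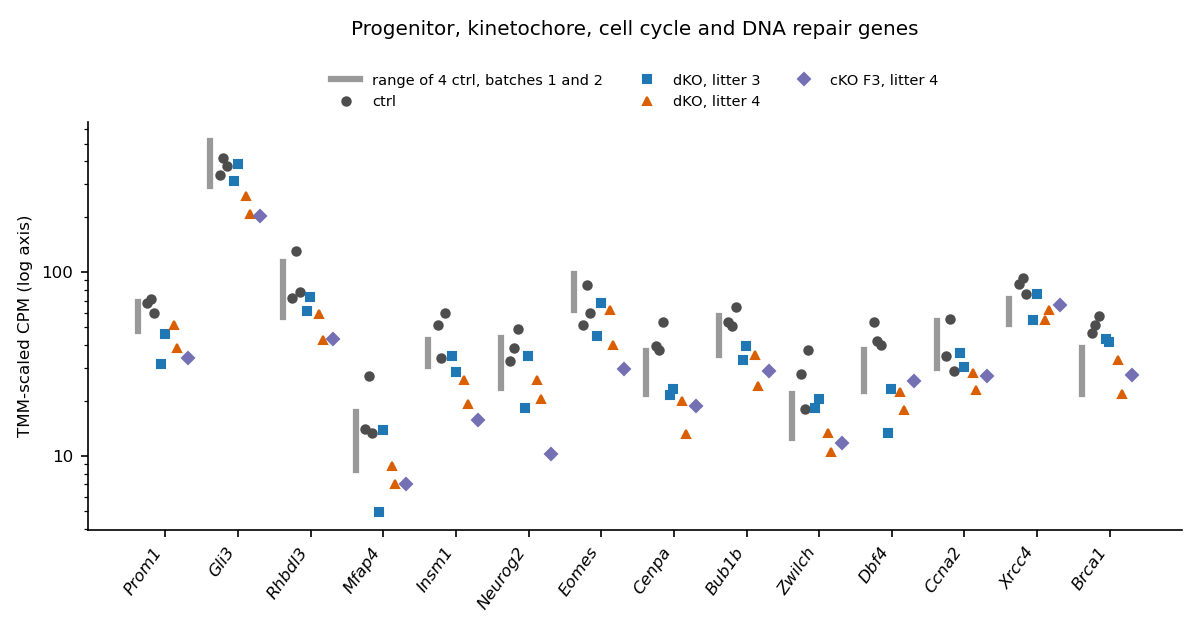
Level of progenitor genes (Prom1 to Eomes) and of kinetochore, cell cycle and DNA repair genes (Cenpa to Brca1) in TMM-scaled CPM on a log axis, with 1 point per library of batch 3 and a grey bar from the lowest to the highest ctrl mouse of batches 1 and 2. For Prom1, Cenpa, Bub1b and Dbf4 every dKO point lies below every batch 3 ctrl point, and for Gli3 the litter 3 dKO points lie among the ctrl points.

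Kinetochore and cell cycle lists separated by litter. Of 22 tested kinetochore and spindle checkpoint genes 0 were called in dKO versus ctrl, 16 had a negative log2 fold change, and the median was -0.35, with -0.08 in litter 3 and -0.49 in litter 4. In litter 4 dKO versus ctrl, where 2.39% of all genes fell at the FDR, 4 of the 22 fell. Among them, Zwilch, of the complex that brings dynein to kinetochores, was at 28, 17.9 and 37.8 CPM in ctrl, 18.2 and 20.3 CPM in litter 3 dKO and 13.3 and 10.5 CPM in litter 4 dKO. The G2 and mitosis list had a median of 0.09 in litter 3 and -0.67 in litter 4. The G1/S and DNA replication list had 0.07 and -0.46. In litter 4 dKO versus ctrl, 3 of 20 genes fell in each of these lists, against the same 2.39% of all genes. Ccna2, cyclin A2, was at 35, 55.5 and 28.9 CPM in ctrl, 36.5 and 30.5 CPM in litter 3 dKO and 28.1 and 22.7 CPM in litter 4 dKO (FDR = 0.435 in dKO versus ctrl). Within litter 3, no member of these lists passed the FDR.

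DNA repair genes had a median of -0.26 over 18 tested genes (-0.14 in litter 3, -0.34 in litter 4), with 0 called in dKO versus ctrl. Xrcc4, of the ligase that joins broken ends, was at 86.4, 93.2 and 75.6 CPM in ctrl and 54.7, 75.8, 54.9 and 62.1 CPM in dKO (log2 fold change -0.54, SE 0.2, FDR = 0.358), and Brca1 was at 46.7, 51.8 and 57.8 CPM in ctrl, 43.1 and 41.6 CPM in litter 3 dKO and 33.2 and 21.7 CPM in litter 4 dKO (log2 fold change -0.72, SE 0.28, FDR = 0.413). Apoptosis genes had a median of -0.19 over 11 genes, with 0 called, and Apaf1, the core of the apoptosome, was at 62.2 to 72.5 CPM in ctrl and 41.4 to 61 CPM in dKO (log2 fold change -0.38, SE 0.2, FDR = 0.612).

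**Figure D3:**
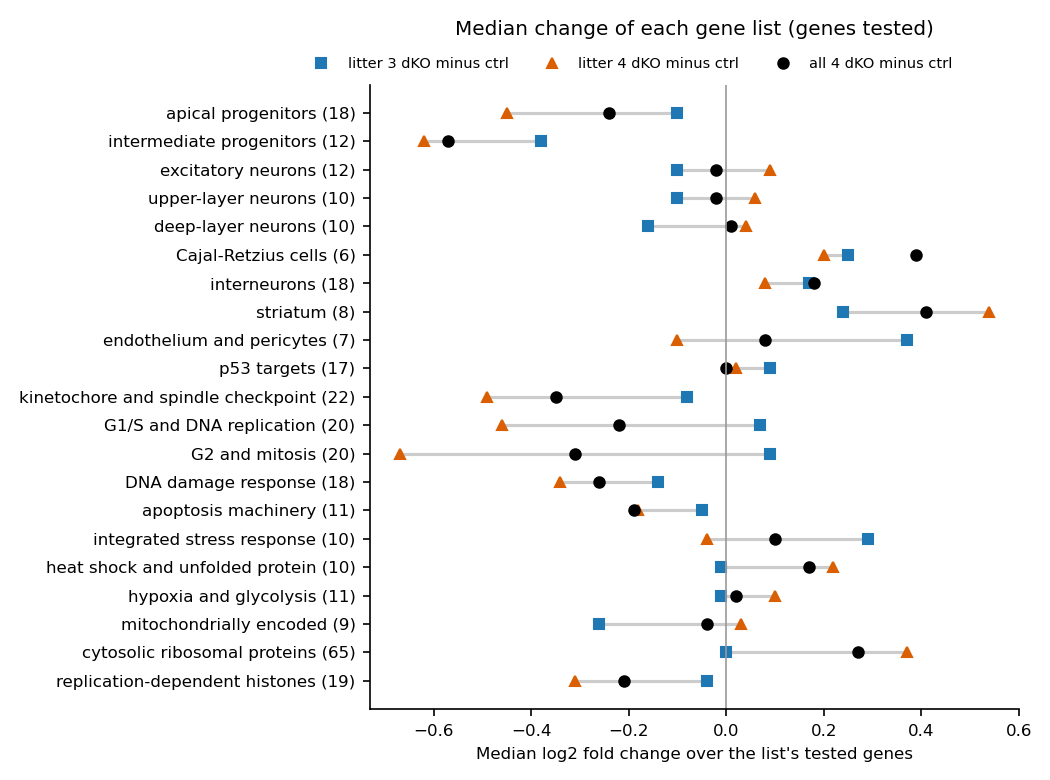
Median log2 fold change of each gene list with at least 6 tested genes (number in parentheses), for litter 3 dKO, litter 4 dKO and all 4 dKO libraries against the same 3 ctrl libraries. The intermediate progenitor list lies left of 0 in both litters (-0.38 and -0.62), while the G2 and mitosis list lies at 0.09 in litter 3 and -0.67 in litter 4.

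Targets of p53 had a median near that of all genes. Of 30 list genes 17 were tested and 0 were called in dKO versus ctrl. At the share of 0.157% over all genes, a list of this size would hold none. The median log2 fold change was 0 (0.09 in litter 3 and 0.02 in litter 4), with 8 positive against 9 negative or at 0. The summed level was 528 to 565 CPM in ctrl and 511 to 615 CPM in dKO, and 743 CPM in cKO F3. Of the targets examined one by one, Pvt1, a long noncoding RNA, was at 35, 30.1 and 37.8 CPM in ctrl, 31.5, 45.3, 33.5 and 38.4 CPM in dKO and 58.9 CPM in F3 (log2 fold change 0.1, SE 0.25, FDR = 0.957). Ano3, an anoctamin, was at 14, 11.3 and 33.3 CPM in ctrl, 18.5 to 26 CPM in dKO and 46.8 CPM in F3 (log2 fold change 0.21, SE 0.36, FDR = 0.925). Ccng1, cyclin G1, was at 23.3, 5.65 and 17.8 CPM in ctrl and 5.54 to 10.3 CPM in dKO (log2 fold change -0.66, SE 0.45, FDR = 0.725), and Map3k20, a stress kinase, had a log2 fold change of -0.22 (SE 0.35, FDR = 0.907). Cdkn1a, the cell cycle inhibitor p21, had 0, 5 and 0 reads in ctrl and 0.924 to 2.13 CPM in dKO, against 7.5 CPM in F3. Eda2r, Trp53cor1 and Dglucy were too low to be tested as well, with 0 to 18.7 CPM over the ctrl libraries and 0 to 8.32 CPM over the dKO libraries. Plk2, a polo-like kinase that neuronal activity also induces, was at 25.7, 38.6 and 24.5 CPM in ctrl, 26.5 and 38.8 CPM in litter 3 dKO and 57.7 and 80.5 CPM in litter 4 dKO (FDR = 0.00518 in litter 4), and F3 was at 74.3 CPM.

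**Figure D4:**
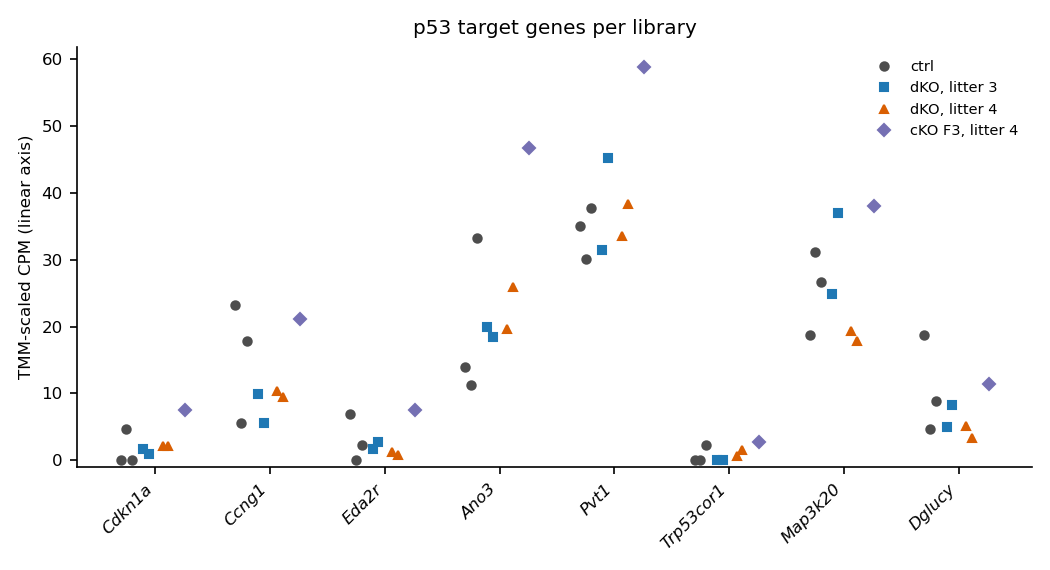
Level of the 8 named p53 targets in each batch 3 library, in TMM-scaled CPM on a linear axis. The dKO and ctrl points overlap, and cKO F3 is the highest library for Cdkn1a, Eda2r, Ano3, Pvt1, Trp53cor1 and Map3k20.

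Neuronal lists had medians near 0. Excitatory neuron genes had a median of -0.02 over 12 tested genes, upper-layer genes -0.02 over 10 and deep-layer genes 0.01 over 10, with 0 called in each. Slc17a6, the vesicular glutamate transporter VGLUT2, was at 98, 99.7 and 80 CPM in ctrl, 46.4 and 69.3 CPM in litter 3 dKO and 65.5 and 71.4 CPM in litter 4 dKO, with no overlap and a missed FDR (log2 fold change -0.58, SE 0.19, FDR = 0.208). Among the upper-layer genes, Unc5d was at 1280 to 1340 CPM in ctrl and 978 to 1220 CPM in dKO (log2 fold change -0.33, FDR = 0.519). Among the deep-layer genes, Sox5 was at 2290 to 2450 CPM in ctrl and 1890 to 2170 CPM in dKO (log2 fold change -0.31, FDR = 0.607). Stmn2, a neuronal microtubule protein, was at 147, 164 and 180 CPM in ctrl, 191 and 153 CPM in litter 3 dKO and 237 and 288 CPM in litter 4 dKO, where it rose (FDR = 0.0113).

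Cells that hGFAP-Cre does not target gave medians of 0.18 for interneurons (18 genes), 0.39 for Cajal-Retzius cells (6 genes), 0.41 for the striatum (8 genes) and 0.08 for endothelium and pericytes (7 genes), with 0 called in dKO versus ctrl. Nxph1, a neurexophilin of interneurons, was at 539, 612 and 460 CPM in ctrl and 680, 675, 667 and 851 CPM in dKO, above every ctrl library (log2 fold change 0.36, SE 0.16, FDR = 0.468). Other interneuron genes went both ways, with log2 fold changes of 0.98 for Sst, -0.58 for Dlx2 and -0.97 for Sp8, so no common direction can be read. Gene markers of the striatum, the tissue below the cortex, included Drd2, the dopamine receptor D2, at 7, 5.65 and 4.45 CPM in ctrl, 6.63 and 11.1 CPM in litter 3 dKO and 15.1 and 16.1 CPM in litter 4 dKO (FDR = 0.0485 in litter 4), and Rxrg, a retinoid receptor, at 2.33, 13.2 and 13.3 CPM in ctrl and 16.6, 20.3, 28.1 and 29.7 CPM in dKO (FDR = 0.165). The summed striatal level was 728 to 809 CPM in ctrl, 782 to 880 CPM in litter 3 dKO and 824 to 913 CPM in litter 4 dKO, and 768 CPM in F3. No gene of the list was at 0 in all 7 libraries. The part of dissection in these values was not tested.

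Other cell types were sparse. Only 3 of 28 microglia and macrophage genes could be tested. The summed level was 80 to 169 CPM in ctrl, highest in T5, and 77.9 to 91.5 CPM in dKO. Their median log2 fold change was -0.77, and 0.34 without T5, so the direction rested on that library. The defining markers Aif1 and Tmem119 were among 5 list genes at 0 in all ctrl libraries. Both had reads in dKO, where only Itgam was at 0 throughout. The litter 4 dKO libraries were deeper, so this detection cannot be compared between the groups. The meninges and choroid plexus list was at 60.2 to 166 CPM in ctrl, 36.5 and 146 CPM in dKO T2 and T8, and 26.3 and 10.1 CPM in dKO F1 and F7. Its collagen gene Col3a1 was at 49, 17.9 and 4.45 CPM in ctrl, 0 and 22.2 CPM in T2 and T8 and 2.41 and 1.55 CPM in F1 and F7. It fell in litter 4 (FDR = 0.000915), while the litter 3 libraries overlapped ctrl. The ctrl mice of other batches were between 0 and 3.36 CPM for Col3a1, a range that holds F1 and F7 and lies below the batch 3 ctrl libraries. Erythrocyte genes gave no tested member and summed to 11.3 to 25.7 CPM in ctrl and 24.9 to 34.2 CPM in dKO. The 3 tested genes of oligodendrocyte precursors had a median of 0.28, with 0 called.

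Stress and signalling lists gave 0 called members in dKO versus ctrl, where 0.157% of all genes were called, so lists of this size would hold none at the background share. The medians were 0.1 for the integrated stress response (10 genes), 0.17 for heat shock and unfolded protein genes (10 genes), 0.02 for hypoxia and glycolysis (11 genes) and -0.29 for 2 immediate early genes, and only Stat2 of 20 interferon response genes could be tested (log2 fold change 0.09). Hsp90aa1, a cytosolic chaperone, was at 84, 93.2 and 71.1 CPM in ctrl, 109 in both litter 3 dKO libraries and 203 and 181 CPM in litter 4 dKO (log2 fold change 0.82, SE 0.23, FDR = 0.113). Hk2, a hexokinase of glycolysis, was higher in value in litter 3 than in litter 4, with 4.67, 5.65 and 8.89 CPM in ctrl, 16.6 and 26.8 CPM in litter 3 dKO and 13.3 and 8.54 CPM in litter 4 dKO (log2 fold change 1.24, SE 0.57, FDR = 0.476).

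More genes differed from ctrl in litter 4 dKO mice than in litter 3 dKO mice, and litter 4 libraries were also deeper. Litter 4 dKO versus ctrl gave 379 genes at an FDR of 0.05 (3.97%), 151 higher and 228 lower, and litter 4 dKO versus litter 3 dKO, which uses no ctrl library in its contrast, gave 205 (2.15%), 88 higher and 117 lower. The cKO mouse F3, which did not enter that fit, was nearer to the litter 4 dKO mean than to the litter 3 dKO mean in 199 of these 205 genes (97.1%), although its genotype is another. Genes higher in litter 4 than in litter 3 dKO had a median exon length of 3639 bases and those lower had 5704, against 5430 over all genes tested.

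The mitochondrial ribosomal RNA mt-Rnr1 had the smallest p among the higher genes. It was at 1020, 1140 and 1270 CPM in ctrl, at 648 and 1110 CPM in dKO T2 and T8, and at 11000 and 9760 CPM in dKO F1 and F7 (litter difference 3.49 on the log2 scale, FDR = 2.79e-43), and F3 was at 17500 CPM. The other mitochondrial ribosomal RNA, mt-Rnr2, had a difference of 1.74 (FDR = 1.31e-10). Gt(ROSA)26Sor, the noncoding transcript of the Rosa26 locus, was at 28, 28.2 and 11.1 CPM in ctrl, 13.3 and 16.6 CPM in litter 3 dKO, 126 and 141 CPM in litter 4 dKO and 146 CPM in F3. Tmsb10, an actin-binding thymosin, was at 11.7, 18.8 and 15.6 CPM in ctrl, 6.63 and 22.2 CPM in litter 3 dKO, 94.2 and 89.8 CPM in litter 4 dKO and 133 CPM in F3. All litter 4 libraries were above all litter 3 libraries in these genes, whatever the genotype. The ctrl mice of other batches were between 4220 and 18600 CPM for mt-Rnr2, which overlapped litter 4. They stayed below litter 4 for the others, with at most 6850 CPM for mt-Rnr1, 23.9 CPM for Gt(ROSA)26Sor and 42.9 CPM for Tmsb10.

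Loci with reads like those of cytosolic ribosomal RNA followed. Their summed level over 16 loci was 4950 to 9530 CPM in ctrl, 6590 and 7380 CPM in litter 3 dKO, 77000 CPM in F1, 13300 CPM in F7 and 42400 CPM in F3. Cdk8 stood at 14200 CPM (F1) and 3450 CPM (F7), against 321 to 1120 CPM in litter 3. Gm23935 stood at 4900 CPM (F1) and 1940 CPM (F7), against 252 to 578 CPM in litter 3. The ctrl mice of other batches reached 2370 CPM for Cdk8, below F7, and 2810 CPM for Gm23935, above F7. These counts cannot be read as expression of the named genes, since such loci can take up reads of ribosomal RNA. Among cytosolic ribosomal protein genes in litter 4, 14 of 65 rose and 0 fell against ctrl, where 1.58% of all genes rose and 2.39% fell (list median 0.37, and 0 in litter 3). Rps21 was at 11.7, 21.6 and 26.7 CPM in ctrl, 21.5 and 14.8 CPM in litter 3 dKO and 58.9 and 56.3 CPM in litter 4 dKO.

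The genes lower in litter 4 included Gli2, a Hedgehog transcription factor of radial glia, at 264, 257 and 313 CPM in ctrl, 227 and 313 CPM in litter 3 dKO, 161 and 125 CPM in litter 4 dKO and 125 CPM in F3. Hist2h4, a replication-dependent histone H4, was at 25.7, 47 and 46.7 CPM in ctrl, 48.1 and 50.8 CPM in litter 3 dKO, 16.9 and 9.7 CPM in litter 4 dKO and 9.09 CPM in F3. Gm29478, Hist1h2al, Tpt1-ps3 and Gm47283 differed by -3.25, -4.16, -2.98 and -2.6 on the log2 scale between the litters. Of these, Hist1h2al and Tpt1-ps3 are annotated as processed pseudogenes, and Gm47283 is annotated on chromosome Y though it was at 189 CPM in the female T8, so their reads may come from copies elsewhere.

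**Figure D5:**
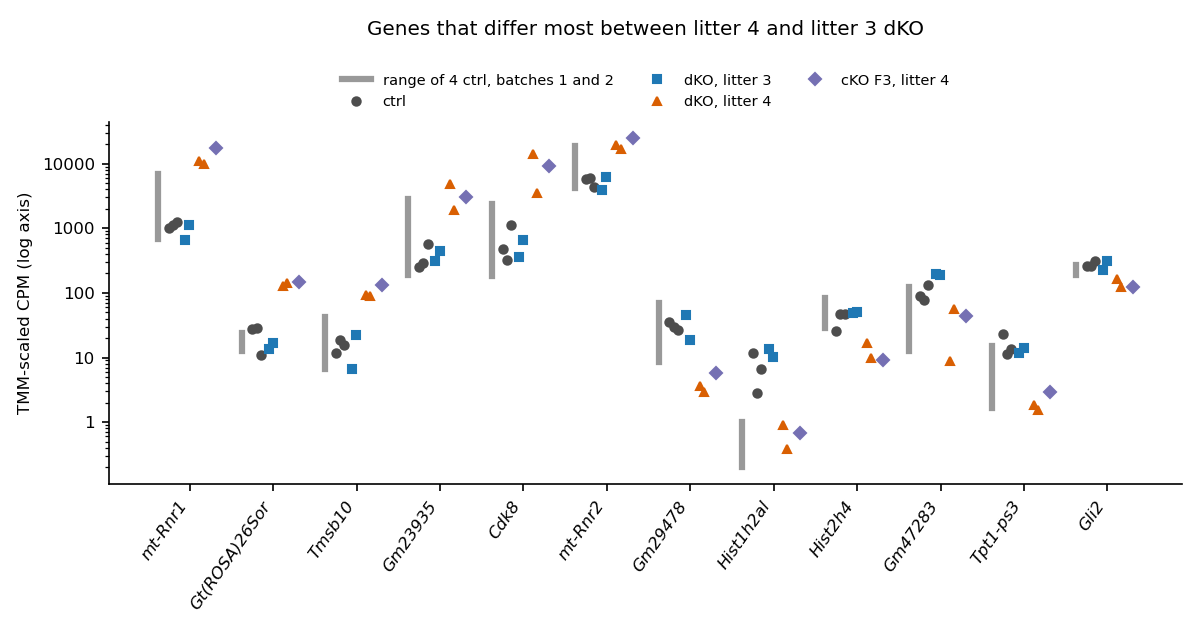
Level of the 6 genes highest and the 6 lowest by p in litter 4 dKO versus litter 3 dKO, in TMM-scaled CPM on a log axis, with values under 0.2 drawn at 0.2. The cKO F3 point lies with the litter 4 dKO points, and the ctrl points lie with the litter 3 dKO points except for Gm47283. There the ctrl points (77.2 to 131 CPM) lie between litter 3 dKO (194 and 189 CPM) and litter 4 dKO (8.75 and 56.7 CPM).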

How the data were processed

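UMI RNA-seq (Click-seq, NextSeq 550) of E15.5 cortex was used, from 600 ng RNA with ribosomal RNA depleted. The authors trimmed reads with cutadapt 1.13, aligned them to GENCODE GRCm38/mm10 with STAR 2.5.2a, collapsed UMIs with UMI-tools 0.5.3 and counted with htseq-count 0.6.1p1. The deposited values are raw counts per gene, and the 5 summary lines were left out. The annotation release is not given in the sources used here. Of 51912 identifiers, 51719 matched GENCODE M21.

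Counts of the 7 libraries were filtered with filterByExpr (minimum count 10) and fitted with edgeR 4.0.16 (R 4.3.3) using TMM, estimateDisp, glmFit and glmLRT with Benjamini-Hochberg FDR, once by genotype and once with ctrl, litter 3 dKO and litter 4 dKO as groups. SEs came from the fitted weights. Levels are TMM-scaled CPM over 15 mice, where libraries S2 and S2b were added together. The median over all genes was within 0.005 of 0 in every comparison. Fits were tested on simulated data.

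Named genes are Knl1 and Trp53, the called genes, the 12 higher and 12 lower genes with the smallest p that met p below 0.05 and 1 direction in both litters, the 6 genes of each direction with the smallest p between the litters, up to 4 genes per list by p, and 8 p53 targets. List genes called in litter 4, Eomes, Dok5 and the lists of mature genes and of structured RNAs were taken up after their values were seen. The comparison, members and lists were chosen with earlier results of these data known. Some genes are not reported here.

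Libraries are 1 mouse each, and no pair of one group differed by less than sampling noise (chi-square per degree of freedom from 1.78 to 22.4). Alternatives were a quasi-likelihood test, DESeq2 1.42.0, RLE scaling, 2 other filters, ribosomal loci left out, each library left out, wild-type ctrl only, covariates, and thinning. Floors of 3 counts (0.556 to 7.5 CPM) cover counting error only.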

Additional observations from a re-analysis of the deposited data

Results flagged for a closer look

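Among the 161 named genes with a test between the litters, 36 differed between litter 4 and litter 3 dKO by edgeR at an FDR of 0.05. The log2 difference (litter 4 minus litter 3) was 3.49 for mt-Rnr1, 1.74 for mt-Rnr2, 1.28 for mt-Nd4, 3.05 for Gt(ROSA)26Sor, 2.43 for Tmsb10, 1.27 for Rpph1 and 3.1 for Gm23935. At loci with reads like ribosomal RNA it was 5.14 for Gm15564, 4.05 for Cdk8, 4.51 for Cmss1, 4.47 for Lars2, 4.8 for Gm42418 and 2.43 for Camk1d. Ribosomal protein genes differed by 0.77 (Rpl8), 1.66 (Rps21), 1.25 (Rpl21), 0.87 (Rpl26) and 1.5 (Rpl23), and Plk2, Hsp90aa1 and Hspe1 by 0.97, 0.75 and 1.73.

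The differences were negative for the pseudogenes and transcripts Gm13340 (-2.23), Gm29478 (-3.25), Hist1h2al (-4.16), Gm47283 (-2.6) and Tpt1-ps3 (-2.98), and for the histone genes Hist2h4 (-1.99) and Hist1h2bj (-1.53). They were also negative for Gli2 (-1.01), Gli3 (-0.67), Ttr (-2.72), Dlx6os1 (-0.75), Ttk (-1.15), Pole (-1.04), Ccnd2 (-0.86) and Hmmr (-1.11). Both litters carry the batch 3 label, and depth differed with litter.

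In 11 of 165 genes 1 of the 4 dKO libraries stood far from the other 3, where chance gives about 1 in 20. F1 was at 694 CPM for Gm15564, 11300 for Cmss1, 3040 for Lars2, 38800 for Gm42418 and 1510 for Camk1d, all 5 of them loci with reads like ribosomal RNA. F7 was at 225 CPM for Rorb, 851 for Nxph1 and 22.5 for Psat1. T8 was at 5.54 CPM for Ccng1 and 22.2 for Col3a1, and T2 at 16.6 CPM for Camk2n1.

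The cKO mouse F3, outside the dKO and ctrl groups, was above all 3 ctrl libraries of the batch for 6 of the 8 named p53 targets. It was at 7.5 CPM for Cdkn1a, 7.5 for Eda2r, 46.8 for Ano3, 58.9 for Pvt1, 2.73 for Trp53cor1 and 38 for Map3k20. It was not above ctrl for Ccng1 (21.1 against 23.3 CPM in T3) or Dglucy (11.4 against 18.7 CPM in T3). The highest ctrl values of Eda2r (7 CPM) and Trp53cor1 (2.22 CPM) rest on 3 reads and 1 read. The share of all genes for which F3 was above ctrl was not counted.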

How the results depend on the processing

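The labels pair no dKO mouse with a single ctrl mouse, so mice were not paired. Litter is a block that the labels give, but litter 4 has no ctrl library, and the fit with litter as a covariate left no call. Genes passing an FDR of 0.05 in dKO versus ctrl numbered 15, and 1 with the quasi-likelihood test, 4 with DESeq2, 26 without a filter on low counts, 2 with wild-type ctrl T3 alone, 0 with litter as a covariate and 0 with all 15 mice and batch as a covariate. In alternatives chosen after seeing the data the number was 3 with all 15 mice and litter, 2 with T2 and T8 against T3 and T4, and 8 with every library thinned to 399832 counts. Leaving out 1 library gave 1 to 153 (1 without T3, 5 without T5, 40 without T2, 153 without T8, 3 without F1, 7 without F7).

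Litter 3 dKO versus ctrl went from 0 to 1 with DESeq2, with ribosomal loci left out and with sex as a covariate, to 4 when thinned, and was 1 to 6 with 1 library left out. Litter 4 dKO versus ctrl went from 379 to 210 (quasi-likelihood), 160 (DESeq2), 181 (no filter), 180 (T3 alone) and 100 (thinned), and was 61 to 429 with 1 library left out, 61 being without F7, 239 without T3 and 247 without T4. Litter 4 dKO versus litter 3 dKO went from 205 to 68 (quasi-likelihood), 74 (DESeq2), 83 (no filter) and 47 (thinned), and was 37 to 224 with 1 library left out, 37 being without F7 and 59 without T8. Fewer libraries or reads were used in the thinned and left-out fits, and the cause of the other moves was not tested.

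Gm29260 kept its direction in all 20 alternatives and passed in 16 of them (log2 fold change -0.92 to -0.69). Gm15564 turned to -0.07 with all 15 mice and litter as a covariate. The median of the intermediate progenitor list stayed below 0 in all alternatives (-0.91 to -0.2), and that of the kinetochore list ranged from -0.51 to 0.01. The shallow ctrl libraries limit genes below about 7.5 CPM.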
